A study of Homo sapiens with 10 samples.

Results

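The comparison described here is NEMP1 knockdown on a soft substrate. It holds 4 of the 10 RNA sequencing libraries of the series, 2 control and 2 siNemp1 libraries from cells kept at 10 kPa, chosen by the names of their columns in the deposited table. All 10 libraries are from hTERT RPE-1, a line of human retinal pigment epithelial cells immortalised with telomerase, so every group carries that transgene. The other 6 libraries, 3 control and 3 siNemp1, are from cells at 120 kPa. Control cells are labelled only as controls, and what small interfering RNA (siRNA), if any, they received is not given. Nor do the sources used here state the siRNA sequences, the time after treatment or the material of the substrate, and the whole study rests on 1 cell line. Nothing says that replicates came from separate cultures, so every p-value here reflects only how far these libraries scatter, and that scatter may be technical.

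NEMP1 is a transmembrane protein of the inner nuclear membrane. It is known for stiffening the nuclear envelope and for its contacts with other proteins of that membrane, among them the LEM-domain proteins. The nucleus is tied to the cytoskeleton by the LINC complex, in which SUN proteins of the inner membrane hold nesprins of the outer membrane across the envelope. Through nesprins, actin and focal adhesions the pull of the cell on its matrix reaches the nucleus, and substrate stiffness sets how strong that pull is.

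NEMP1 itself (ENSG00000166881, chr12:57055643-57088063, minus strand, GRCh38) lay at 14.2 and 17.5 counts per 1000000 (CPM) in control replicates 1 and 2, and at 8.20 and 7.64 CPM in siNemp1 replicates 1 and 2. Both siNemp1 libraries were below both control libraries. The log2 change (siNemp1 minus control, ± SE throughout) was −0.99 ± 0.15, to 0.502 times the control level, and the adjusted p was 7.3e-05 (edgeR, quasi-likelihood test, Benjamini-Hochberg). Protein was not measured. NEMP2, the paralog, lay at 5.81 and 4.78 CPM in control against 4.77 and 5.36 in siNemp1, with overlapping groups and a log2 difference of −0.07 ± 0.20 (adjusted p = 0.86).

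Of 40664 genes in the table, 13345 passed the filter on low counts. By the same test 2308 of these were called at an adjusted p under 0.05, which is 17.3% of the genes tested. In siNemp1, 1081 were higher (8.1%) and 1227 lower (9.19%). Most changes were small, with a median size of 0.33 on the log2 scale, or 1.26-fold, and 81 genes (0.607%) changed at least 2-fold. Of those 81 genes, 73 had a mean under 5 CPM. Higher and lower calls were unequal in size, since 310 genes fell by at least 0.5 on the log2 scale and 93 rose by as much. No called gene had overlapping groups, but neither did 58.3% of all genes tested. Among gene types, 18.8% of 12014 protein-coding genes and 2.64% of 948 long noncoding genes were called.

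These calls rest on how alike the 2 libraries of each group were. Totals were 21.4 and 18.3 M counts (M for 1000000) in control against 23.8 and 20.2 M in siNemp1, and mitochondrial transcripts took 1.48 to 1.60% of them. The chi-square per gene was 2.67 between the control replicates, 6.58 between the siNemp1 replicates and 14.8 to 20.7 between libraries of different groups. The common dispersion was 0.00423 in the 4 libraries and 0.0387 when all 10 were fitted together. In the fit of all 10 libraries, edgeR called 0 genes at 10 kPa, with 850 at an unadjusted p under 0.05. DESeq2, on the 4 libraries, called 1322. Without control replicate 1 the count was 844, and without control replicate 2 it was 1164, with 776 and 1064 of the 2308 genes called again in the same direction. A call lost "without either control library" was lost when replicate 1 was left out and also when replicate 2 was. With a control library left out the spread comes from the siNemp1 pair alone, the more scattered of the 2 pairs. In both of these fits 0 of the 2308 genes had the opposite sign, so a lost call is not a lost change. For a single gene, an exact permutation test of 2 against 2 libraries cannot go below a two-sided p of 0.333. All gene and list calls below are from the fit of the 4 libraries, and "rose" and "fell" are used only of genes called there.

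**Figure D1:**
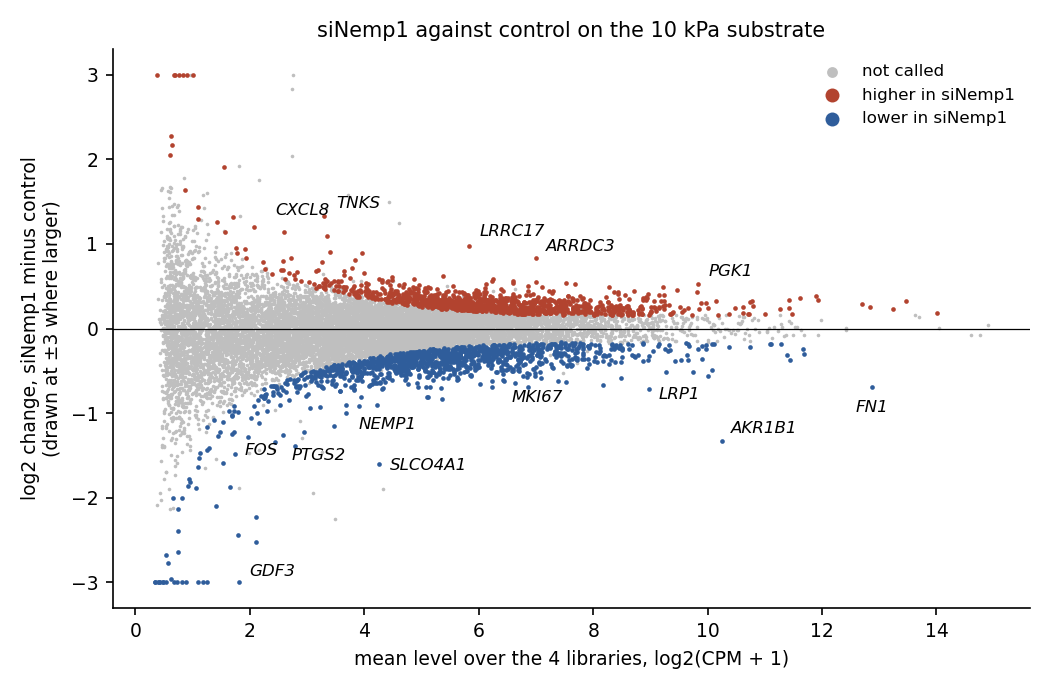
Each point is 1 of 13345 genes, with its mean level over the 4 libraries as log2(CPM + 1) on the horizontal axis and its log2 change on the vertical axis (points past ±3 are drawn at the edge). Called genes are coloured, 1081 higher and 1227 lower in siNemp1. Most called genes lie within 0.5 of the line at 0, and AKR1B1 and FN1 stand out among the abundant genes below it.

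Transcript length moved with the change. Genes were placed in 5 bins of equal size by the length of 1 annotated transcript per gene. In the bin of shortest transcripts (median 1201 bases) 314 genes rose and 72 fell, with a median log2 change of 0.09. In the bin of longest transcripts (median 7092 bases) 105 rose and 594 fell, with a median of −0.15. The median deviation of that bin from the mean of the 4 libraries, as log2(CPM + 1), was 0.08 and 0.06 in the controls and −0.06 and −0.07 in the siNemp1 libraries, so that both libraries of a group lay on the same side. The bins of lowest and highest GC content had medians of 0.06 and −0.13. In the highest GC bin the median deviation was 0.06 and 0.05 in the controls. There it was 0.01 in siNemp1 replicate 1 and −0.11 in siNemp1 replicate 2, so the siNemp1 libraries differed. The siNemp1 libraries at 120 kPa, which share no library with this comparison, had medians of 0.17 and −0.16 in the shortest and longest bins. The share of ribosomal RNA among the counts also differed, at 0.404 and 0.392% in control and 0.323 and 0.322% in siNemp1. The part of library make-up in the length pattern was not tested.

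A further fit, added once the data had been seen, took out each library's trends with length and GC. It called 1694 genes (12.7%), 1045 higher (7.83%) and 649 lower (4.86%). The share of calls that were higher thus went from 46.8% to 61.7%. Of the 2308 genes, 756 of those higher and 551 of those lower were called again in the same direction. Long genes lost most. The endocytic receptor gene LRP1 is an example, with 634 and 607 CPM in control against 410 and 348 in siNemp1. Its change was −0.71 ± 0.07 as deposited and −0.29 with the trends removed, called in both. Many gene groups below are therefore given both ways, and the others as deposited only.

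**Figure D2:**
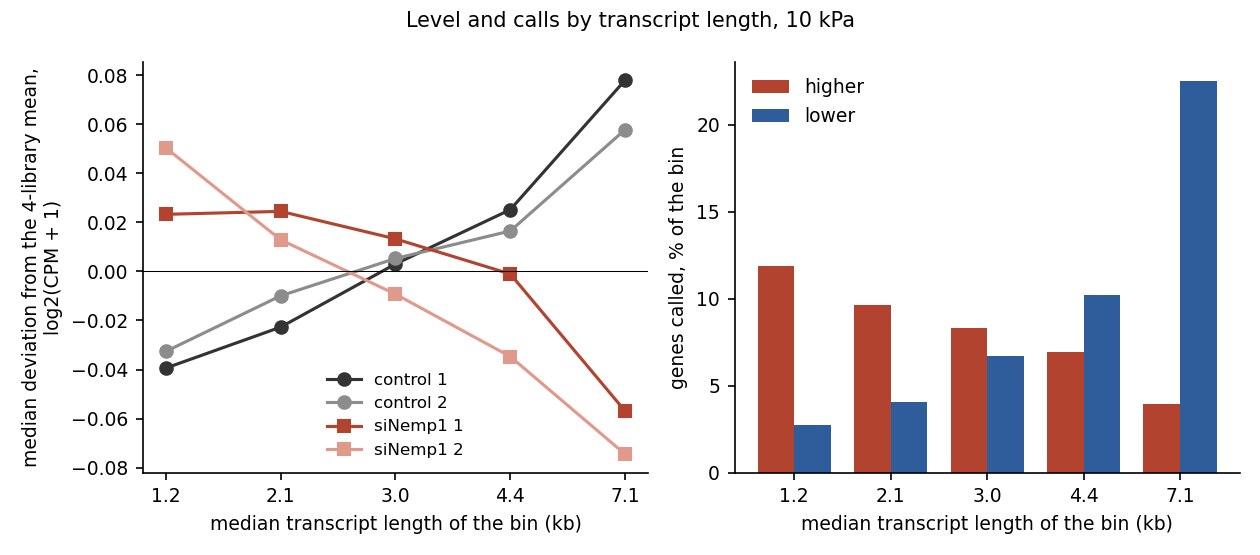
Left, the median deviation of each length bin from the mean of the 4 libraries, as log2(CPM + 1), for 2 control (grey) and 2 siNemp1 (red) libraries, against the bin's median transcript length in kb. Right, the percentage of each bin's genes called higher or lower in siNemp1. Control lines rise and siNemp1 lines fall with length, and 22.5% of the longest bin was called lower against 2.73% of the shortest.

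The largest change of an abundant gene was in AKR1B1 (ENSG00000085662, chr7:134442350-134459284, minus strand), which encodes aldose reductase, the enzyme that turns glucose into sorbitol in the polyol pathway. It lay at 1734 and 1775 CPM in control against 670.3 and 721 in siNemp1. The groups were far apart beside the gap within each. Its log2 change was −1.33 ± 0.06, to 0.397 times the control level (adjusted p = 5.1e-13 by edgeR), and −1.37 with the trends removed. SLCO4A1 (chr20:62642445-62685785), an organic anion transporter of the plasma membrane, lay at 27.0 and 27.7 CPM in control against 10.6 and 7.28 in siNemp1, again without overlap. Its change of −1.60 ± 0.14 was the largest fall of any gene that averaged 5 CPM or more. SERPINA1, the protease inhibitor alpha-1-antitrypsin, fell from 14.3 and 13.5 to 5.23 and 7.38 CPM (−1.15 ± 0.17). Of the 11 tested genes of the aldo-keto reductase and polyol list, 1 rose and 2 fell, or 27.3% called against 17.3% of all genes. AKR1A1, the aldehyde reductase, rose by 0.24 on the log2 scale, a call lost without either control library. AKR1C2, a hydroxysteroid dehydrogenase with near-identical relatives, was near the floor of detection at 0.79 and 1.58 against 0.209 and 0.152 CPM.

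Other genes among the 12 largest falls were RHOJ, a small GTPase (24.7 and 21.3 to 12.9 and 11.7 CPM, −0.90 ± 0.12), and TIMP3, an inhibitor of metalloproteinases (10.6 and 11.4 to 5.90 and 5.66, −0.93 ± 0.16). MICALL1, an endosomal protein, fell by 0.94 but lost its call without control replicate 1. The noncoding genes AFAP1-AS1 and FOXD2-AS1 changed by −0.92 and −0.84, and since strand use in counting is not given, their reads cannot be told from those of the genes they overlap. FOXD2-AS1 lost its call without control replicate 2. Among genes that averaged 100 CPM or more, CASP2, an initiator caspase, fell by 0.70 (141 and 144 to 89.5 and 86.3 CPM). AHNAK, a very large scaffold protein, fell by 0.67, and HIPK2, a nuclear kinase, by 0.63. NBPF14 fell by 0.62, but it belongs to a family of near-identical copies among which reads can be split. HUWE1 (−0.58), FLNA (−0.58), MACF1 (−0.58) and RELN (−0.56) are long genes. Taking out the trends left them at −0.27, −0.23, −0.23 and −0.32, and HIPK2 at −0.33, all still called.

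ARRDC3 (ENSG00000113369, chr5:91368724-91383359, minus strand), an alpha-arrestin that guides membrane receptors to degradation, gave the clearest rise. Control libraries lay at 90.9 and 90.5 CPM and siNemp1 libraries at 161.9 and 162.2, so the replicates nearly coincided. The log2 change was 0.84 ± 0.06, or 1.79-fold (adjusted p = 4.9e-09 by edgeR). LRRC17, a secreted leucine-rich repeat protein (chr7:102912991-102944949), went from 40.6 and 34.5 to 73.2 and 74.7 CPM (0.97 ± 0.08), also without overlap. SLC40A1, the iron exporter ferroportin, went from 9.15 and 10.2 to 17.1 and 16.8 CPM (0.81 ± 0.13). TNKS, a poly-ADP-ribose polymerase that acts at telomeres and in Wnt signalling, rose by 1.33 ± 0.21, but its control libraries at 6.36 and 3.59 CPM were far apart. RUFY1, an endosomal adaptor, rose by 0.89 ± 0.13 and the zinc finger gene ZNF627 by 0.91 ± 0.16. IQGAP2, BBS10 and ZNF548 rose by 0.78, 0.71 and 0.69. IQGAP2 lost its call without control replicate 2, and BBS10 and ZNF548 without control replicate 1.

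Above 100 CPM the rises were smaller. PGK1, a glycolytic kinase, went from 748 and 752 to 1037 and 1117 CPM (0.52 ± 0.06). MRPL49, a mitochondrial ribosomal protein, rose by 0.55, C5orf15 by 0.54, and TMEM106B, a lysosomal membrane protein, by 0.53. PPT1, a lysosomal thioesterase, rose by 0.50, and MAGED2 and CD46, a complement regulator, by 0.49 each. PRDX4, a peroxiredoxin of the endoplasmic reticulum, rose by 0.49, TUBA1A, an alpha-tubulin, by 0.46, and NCOA4, the receptor that sends ferritin to lysosomes, by 0.44. All 10 remained called with each of the 4 libraries left out and with the trends removed.

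**Figure D3:**
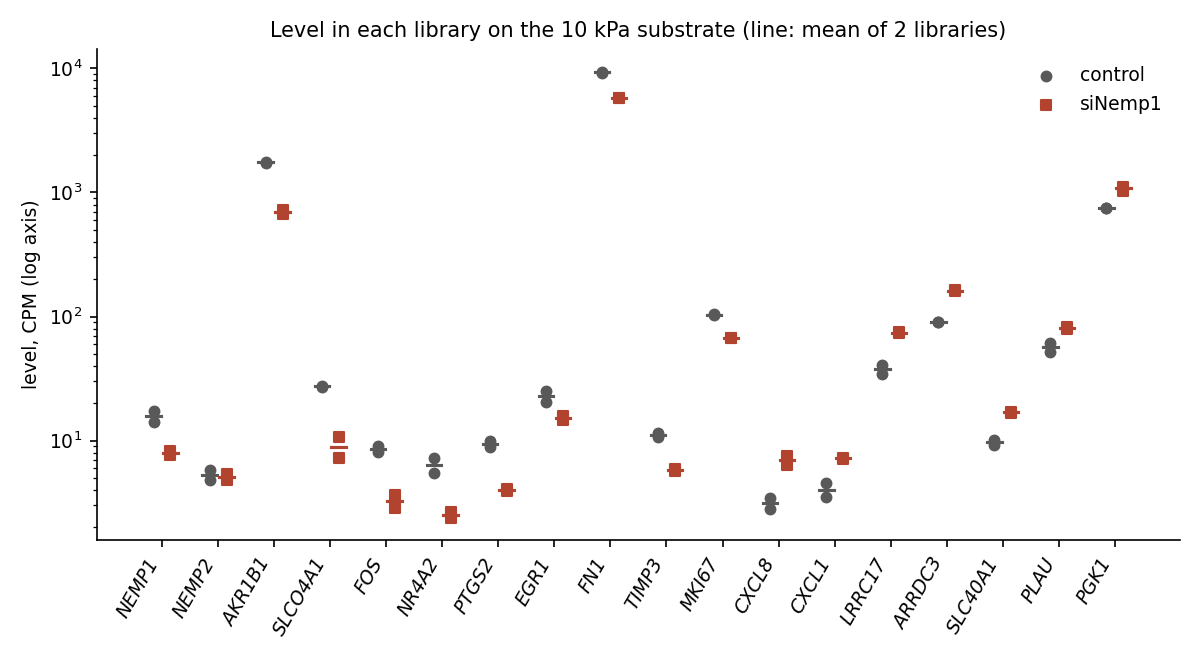
Level in CPM, on a log axis, of 18 genes in the 2 control (grey circles) and 2 siNemp1 (red squares) libraries, with a line at each group's mean. NEMP2 is the only gene shown whose groups overlap, and the libraries of a group lie close together for AKR1B1 and ARRDC3.

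Immediate early genes are transcribed within minutes of a stimulus, without new protein synthesis, and many encode transcription factors such as the FOS and JUN subunits of AP-1. Of 30 such genes tested, 6 fell and 0 rose, or 20% called. Of all genes 17.3% were called and 9.19% fell. The list's median log2 change was −0.30, against −0.0145 over all genes tested. FOS (chr14:75278774-75282230) lay at 8.08 and 9.02 CPM in control against 3.64 and 2.83 in siNemp1 (−1.39 ± 0.20, adjusted p = 5.3e-05 by edgeR). The orphan nuclear receptor NR4A2 lay at 7.20 and 5.44 against 2.38 and 2.63 CPM (−1.34 ± 0.23). Neither gene's groups overlapped, and both calls held with each library left out. The zinc finger factor EGR1 lay at 25.2 and 20.6 against 14.7 and 15.8 CPM (−0.59 ± 0.12), a call lost without control replicate 1. The AP-1 subunits FOSL2 and FOSL1 fell by 0.37 and 0.29, and SPRY4, a feedback inhibitor of growth factor signalling, by 0.67. FOSL1 lost its call without control replicate 1 and FOSL2 with the trends removed, where 5 of the list fell and 1 rose. The list had fewer calls without control replicate 1. DESeq2 called 3 of the list, and gave no adjusted p for FOS, NR4A2 and SPRY4.

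PTGS2, the inducible cyclooxygenase that begins prostaglandin synthesis (chr1:186671791-186680427), lay at 8.82 and 10.0 CPM in control against 3.93 and 4.10 in siNemp1, without overlap (−1.23 ± 0.18). It was the only gene of the 17 tested in the prostaglandin list that fell, and CBR1 the only one that rose, by 0.21. That list had 11.8% called, against 17.3% of all genes. Of 23 chemokines and cytokines, 2 rose and 3 fell, or 21.7% called against 17.3% of all genes. The neutrophil-attracting chemokine CXCL8 (chr4:73740506-73743716) lay at 3.44 and 2.83 CPM in control against 7.53 and 6.37 in siNemp1, a rise of 1.15 ± 0.21. CXCL1, from the same chemokine cluster, lay at 3.48 and 4.57 against 7.15 and 7.18 CPM, a rise of 0.84 ± 0.20. Groups did not overlap for either chemokine, but CXCL1 lost its call without control replicate 1. CSF1, LIF and CXCL16 fell by 0.25, 0.48 and 0.42, and lost their calls with the trends removed. LIF also lost its call when any 1 of the 4 libraries was left out, and CSF1 without control replicate 1. CXCL16 also lost its call without control replicate 2 or siNemp1 replicate 2. SOD2, the mitochondrial superoxide dismutase and an NF-kB target, was the 1 gene called of 18 in the NF-kB list (5.56%) and rose by 0.25. The CBR1 and SOD2 calls were lost without either control library.

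The sequences before the start of EGR1, CXCL1 and CXCL8 are shown because these 3 inducible genes moved in different directions and each holds a match to a motif of a stimulus-dependent factor. Bases run 5′ to 3′ from RefSeq on GRCh38.p14, all on the plus strand. They end just before the RefSeq start for EGR1 and CXCL1, and for CXCL8 just before the start of the gene in GENCODE, which lies upstream of its RefSeq start. The positions are chr5:138465229-138465478 for EGR1, chr4:73869143-73869392 for CXCL1 and chr4:73740319-73740505 for CXCL8. Capitals mark matches to any of 6 motifs searched on both strands: AP-1 (TGANTCA), the cyclic AMP response element (TGACGTCA), the E-box (CACGTG), the hypoxia response core (ACGTG), which the E-box contains, the CArG box of serum response factor and the NF-kB site.
EGR1: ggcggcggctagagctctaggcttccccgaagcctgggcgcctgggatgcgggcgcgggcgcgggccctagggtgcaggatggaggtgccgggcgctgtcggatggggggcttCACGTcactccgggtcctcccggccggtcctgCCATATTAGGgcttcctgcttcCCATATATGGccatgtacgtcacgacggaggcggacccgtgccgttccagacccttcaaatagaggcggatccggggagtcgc
CXCL1: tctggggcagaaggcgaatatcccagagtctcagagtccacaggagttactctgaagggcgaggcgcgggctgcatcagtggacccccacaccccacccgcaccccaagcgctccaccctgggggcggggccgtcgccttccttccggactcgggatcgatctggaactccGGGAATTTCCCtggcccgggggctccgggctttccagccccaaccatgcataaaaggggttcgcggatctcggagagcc
CXCL8: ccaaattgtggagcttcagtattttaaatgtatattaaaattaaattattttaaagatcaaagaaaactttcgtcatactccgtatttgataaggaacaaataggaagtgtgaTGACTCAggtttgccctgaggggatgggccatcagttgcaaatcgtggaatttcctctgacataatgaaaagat
In EGR1 the capitals are a hypoxia response core on the opposite strand and 2 CArG boxes, which end 95 and 73 bases before the RefSeq start. In CXCL1 they are 2 overlapping NF-kB matches, which end 69 and 68 bases before the RefSeq start. In CXCL8 they are an AP-1 match that ends 130 bases before the RefSeq start, part of which distance lies past the printed bases. FOS held none of the 6 in the 250 bases before its RefSeq start, which says only that these letters are not in that window. The same holds for motifs not marked in the 3 printed sequences. The NF-kB pattern had to open with GGG and end with CC, so variants of that site are not marked.

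Over all called genes the share of promoters with a match was counted for each motif, without a test. A promoter was matched for 10786 of 13315 tested symbols (81%). AP-1 matches lay in 4.51% of 910 promoters of genes that rose, 3.14% of 988 of genes that fell and 4.18% of all those tested, and in 6.6% of all 27305 promoters in the table. For the CArG box the shares were 0.989%, 1.82%, 1.02% and 1.14%, and for the NF-kB site 7.91%, 8.5%, 8.97% and 7.75%. The cyclic AMP response element lay in 2.31%, 3.85%, 2.99% and 1.77%, the E-box in 9.78%, 10.2%, 8.74% and 6.49%, and the hypoxia response core in 25.9%, 23.4%, 23.4% and 18.7%.

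Matrix genes were mostly lower. Of 28 tested collagens and matrix glycoproteins, 13 fell and 2 rose, with a median of −0.285. Fibronectin, FN1 (chr2:215360440-215436172), among the most abundant transcripts of these cells, lay at 9442 and 9160 CPM in control against 5796 and 5740 in siNemp1, a change of −0.69 ± 0.06 with no overlap (adjusted p = 1e-07 by edgeR). The proteoglycan versican, VCAN, went from 1257 and 1205 to 825 and 845 CPM (−0.56 ± 0.06). Laminin chains moved the same way, with LAMC1 at −0.52 ± 0.06, LAMA4 at −0.42 ± 0.05 and LAMB1 at −0.34 ± 0.06, and the fibrillar collagen COL5A2 at −0.60 ± 0.09. These genes are long, with a median transcript of 6904 bases in the list. Once the trends were taken out FN1 stood at −0.49, VCAN at −0.36, LAMC1 at −0.33, LAMA4 at −0.29, LAMB1 at −0.20 and COL5A2 at −0.44, all still called, and the list had 6 lower, 3 higher and a median of −0.08. COL1A1 was low and did not pass, at 4.97 and 6.31 against 5.56 and 6.73 CPM (adjusted p = 0.72). The list had 8 calls without control replicate 1 and 9 without control replicate 2.

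Of 27 genes of matrix remodelling and crosslinking, 6 rose and 7 fell. TGM2, the transglutaminase that crosslinks fibronectin, lay at 1020 and 1004 CPM in control against 764 and 653 in siNemp1 (−0.51 ± 0.07). The 2 plasminogen activators moved in opposite directions. Tissue plasminogen activator, PLAT, went from 772 and 787 to 598 and 597 CPM (−0.38 ± 0.05), and urokinase, PLAU, from 51.6 and 61.1 to 82.6 and 79.6 CPM (0.53 ± 0.08). Neither gene's groups overlapped. The sheddase ADAM17 rose by 0.41, and the matrix protease ADAMTS1 and the inhibitor TIMP3 fell by 0.53 and 0.93. All 6 genes remained called with each library left out and with the trends removed, where the list had 5 higher and 5 lower. The list had 7 calls without control replicate 1 and 8 without control replicate 2.

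Among genes that tie the cell to its matrix, 12 of 27 focal adhesion and integrin genes fell and 2 rose (median −0.22). The laminin-binding integrin subunit ITGA3 lay at 748 and 709 CPM in control against 543 and 477 in siNemp1 (−0.52 ± 0.06). The talin gene TLN1, whose product links integrins to actin, changed by −0.40 ± 0.06, the tensin gene TNS3 by −0.43 ± 0.06, LPP by −0.36 and the collagen receptor subunit ITGA2 by −0.29. ILK, the integrin-linked pseudokinase, rose from 400 and 417 to 506 and 544 CPM (0.36 ± 0.06). The calls of TLN1 and LPP were lost with the trends removed, ITGA3 stood at −0.29 and TNS3 at −0.18, and 5 of the list fell and 1 rose. Without control replicate 1 the list had 7 calls, and likewise without control replicate 2.

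Of 29 genes of the actomyosin cytoskeleton and of the MRTF and SRF pathway, which switches on actin genes when free actin falls, 9 fell and 4 rose (median −0.14). Myosin light chain kinase, MYLK, went from 227 and 214 to 170 and 159 CPM (−0.42 ± 0.06). The nonmuscle myosin heavy chain MYH10 changed by −0.38 ± 0.06 and the crosslinkers ACTN4 and ACTN1 by −0.44 and −0.34. The light chain MYL6 rose from 758 and 770 to 974 and 1093 CPM (0.44 ± 0.06). Beta-actin, ACTB, did not pass, at 25617 and 25407 against 24003 and 24241 CPM (−0.08 ± 0.06). MYLK and MYH10 each stood at −0.19 and ACTN4 at −0.24 with the trends removed, and the list had 8 lower and 2 higher. Without control replicate 1 it had 9 calls.

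YAP and TAZ are coactivators that enter the nucleus on stiff matrix and bind TEAD factors. Of 24 of their target genes 6 fell and 0 rose (median −0.14), beside a background of 9.19% lower. The 6 were MYOF, PTPN14, AMOTL1, TEAD1, ASAP1 and CRIM1, at −0.32, −0.35, −0.34, −0.41, −0.37 and −0.22. PTPN14 and AMOTL1 bind and restrain YAP, and TEAD1 is one of its partners. The targets most used as readouts did not pass. CCN2 lay at 29.8 and 24.8 CPM in control against 33.8 and 31.0 in siNemp1 (0.24 ± 0.10, adjusted p = 0.096). ANKRD1 lay at 34.9 and 34.7 against 38.1 and 41.0 (0.18 ± 0.08, adjusted p = 0.14), and CCN1 at 51.5 and 60.1 against 74.8 and 48.8 with overlapping groups. In the fit with the trends removed MYOF, TEAD1 and ASAP1 were called, and PTPN14, AMOTL1 and CRIM1 were not. ASAP1 also lost its call without control replicate 1, and CRIM1 without either control library.

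Of 24 nuclear envelope genes tested, 5 fell, NEMP1 among them, and 1 rose, or 25% called against 17.3% of all genes. The nesprin genes SYNE1 and SYNE2 changed by −0.35 ± 0.09 and −0.58 ± 0.13. SYNE1 lay at 34.5 and 36.4 CPM in control against 29.2 and 26.2 in siNemp1, SYNE2 at 18.1 and 15.9 against 10.4 and 12.4. Both transcripts are among the longest known, and with the trends removed they stood at 0.021 and −0.30, neither called. The lamin B gene LMNB1 (−0.53 ± 0.18) and TMPO, which encodes the LEM-domain LAP2 proteins (−0.42 ± 0.10), fell, and TOR1AIP1, the torsin activator LAP1, rose from 49.6 and 50.4 to 61.9 and 60.9 CPM (0.30 ± 0.07). LMNB1 lost its call when any 1 of the 4 libraries was left out. TMPO, TOR1AIP1 and SYNE2 lost theirs without control replicate 1 and SYNE1 without control replicate 2, so that the list had 2 and 4 calls there. SUN1 lay at 128 and 132 against 147 and 141 CPM (0.15 ± 0.06, adjusted p = 0.082), SUN2 at 13.3 and 11.3 against 12.04 and 10.3, and emerin, EMD, at 44.2 and 43.6 against 45.9 and 41.9. LMNA lay at 486 and 483 CPM in control against 495 and 370 in siNemp1. SUN2, EMD and LMNA had overlapping groups and did not pass (adjusted p = 0.56, 0.99 and 0.66). The fit with the trends removed gave 3 lower and 3 higher.

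Of 27 nuclear pore genes 9 fell and 4 rose, with a median of −0.04. POM121, a transmembrane anchor of the pore, went from 44.9 and 42.6 to 28.8 and 31.5 CPM (−0.54 ± 0.08). The scaffold gene NUP188 changed by −0.31, the basket gene TPR by −0.31, NUP210 by −0.43 and RANBP2 by −0.32. The channel gene NUP54 rose by 0.42 ± 0.09. Taking out the trends left POM121 at −0.35 and NUP54 at 0.29, both called. NUP188, NUP210 and RANBP2 lost their calls there, and the list had 3 lower and 4 higher. TPR, NUP210 and RANBP2 also lost theirs without control replicate 1, where the list had 4 calls, against 7 without control replicate 2.

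Among genes of mitosis, 12 of 35 tested fell and 0 rose (median −0.12), and with the trends removed the count was again 12 and 0. The proliferation marker MKI67 lay at 105 and 103 CPM in control against 67.0 and 67.5 in siNemp1 (−0.62 ± 0.06, adjusted p = 8.6e-07 by edgeR). The kinetochore gene CENPF went from 107 and 98.0 to 69.0 and 65.9 CPM (−0.60 ± 0.07), the midzone kinesin KIF23 from 67.3 and 68.6 to 44.4 and 48.7 (−0.55 ± 0.07), and the spindle pole gene ASPM from 54.2 and 49.1 to 36.0 and 32.9 (−0.58 ± 0.08). None of these overlapped. KIF11, the motor that separates spindle poles, fell by 0.49, and CDCA8, of the chromosomal passenger complex, by 0.29. MKI67 stood at −0.35 and KIF23 at −0.58 with the trends removed. CDCA8 lost its call without control replicate 1, where the list had 6 calls, against 7 without control replicate 2. Whether fewer cells in mitosis or less RNA per cell lay behind these values cannot be told apart in bulk RNA.

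Genes of DNA replication and of G1 showed few calls, 10.5% and 5% against 17.3% of all genes. Of 38 replication genes 3 fell and 1 rose. RFC1, the large subunit of the clamp loader, went from 80.1 and 75.7 to 49.2 and 49.6 CPM (−0.66 ± 0.07), and the checkpoint adaptor CLSPN from 40.3 and 41.8 to 29.4 and 28.98 (−0.49 ± 0.08). POLE fell by 0.66, which did not pass with the trends removed, and RPA2 rose by 0.29, a call lost without control replicate 2. Cyclin D1, CCND1, was the 1 gene called of 20 G1 regulators and fell by 0.29, a call lost without control replicate 1. CDKN1A, the p53-induced inhibitor p21, lay at 355 and 369 against 366 and 321 CPM with overlapping groups (adjusted p = 0.45). Of 25 p53 targets 4 rose and 1 fell, and all 5 calls were lost without control replicate 2, and all but TRIAP1 without control replicate 1. The p53 list had 20% called, near the 17.3% of all genes, and with the trends removed 1 was higher and 0 lower. Of 16 replication-dependent histone genes 2 rose, or 12.5% called. H4C14 was the larger of these 2 rises (4.69 and 7.12 to 11.96 and 13.05 CPM, 1.09 ± 0.18). Histone H4 genes have near-identical copies, so its value is uncertain.

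The proteasome is the complex that degrades ubiquitin-tagged proteins. Of 30 of its genes tested, 20 rose and 0 fell (median 0.21), against 8.1% of all genes that rose. The core subunit PSMB1 lay at 177 and 174 CPM in control against 214 and 232 in siNemp1 (0.35 ± 0.06), and the lid subunit PSMD13 at 73.5 and 80.3 against 97.5 and 100.5 (0.37 ± 0.06). Neither overlapped. PSMA7 rose by 0.31, PSMA2 by 0.29, PSMA3 by 0.32 and PSMB5 by 0.26. These transcripts are short (list median 1580 bases). With the trends removed 10 rose and 1 fell, the median was 0.12, and PSMA2 and PSMA3 lost their calls. Calls of these small changes also varied with the control library left out, where the spread came from the siNemp1 pair alone. The list had 3 calls without control replicate 1 and 6 without control replicate 2, and of the 6 named, PSMB1 and PSMD13 held in both.

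Ribosomal and respiratory chain genes also had rises and no falls. Of 43 tested mitochondrial ribosomal proteins 17 rose and 0 fell (median 0.17), and so did 17 of 47 nuclear genes of the respiratory chain, where again 0 fell (median 0.19). Of 49 cytosolic ribosomal proteins 10 rose and 0 fell (median 0.10), or 20.4% called against 17.3% of all genes. COX4I1, a subunit of cytochrome c oxidase, lay at 428 and 435 CPM in control against 524 and 585 in siNemp1 (0.36 ± 0.06). ATP5PB, of ATP synthase, rose by 0.33 and CYC1, cytochrome c1, by 0.41. The mitochondrial ribosomal gene MRPL13 rose from 28.0 and 27.6 to 36.1 and 40.1 CPM (0.45 ± 0.09), and the ribosomal stalk gene RPLP0 from 2706 and 2766 to 3338 and 3707 CPM (0.36 ± 0.06). With the trends removed the counts were 10 higher and 0 lower, 11 and 0, and 6 and 1. Without control replicate 1 the 3 lists had 2, 4 and 1 calls, and without control replicate 2, 8, 7 and 1. RPLP0 lost its call without control replicate 1. Without siNemp1 replicate 1 the cytosolic list had 42 calls and the respiratory list 34. Many cytosolic ribosomal genes have near-identical processed pseudogenes that can take their reads.

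Transcripts of the mitochondrial genome encode subunits of the same complexes. Of 13 tested, 6 fell and 1 rose (median −0.18), and with the trends removed 11 fell and 1 rose. MT-ND4, of complex I, lay at 1423 and 1411 CPM in control against 1161 and 1276 in siNemp1 (−0.22 ± 0.06), and MT-CO3, of complex IV, at 1000 and 983 against 792 and 885 (−0.24 ± 0.06). MT-ND1, MT-ATP6 and MT-ND2 changed by −0.23, −0.19 and −0.18. MT-CO1 rose instead, from 3540 and 3027 to 4185 and 4401 CPM (0.39 ± 0.07), though its 2 control libraries differed most. The 5 named falls were lost without either control library, and MT-CO1 without control replicate 2 or either siNemp1 library. The list had 1 call without control replicate 1 and 0 without control replicate 2.

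**Figure D4:**
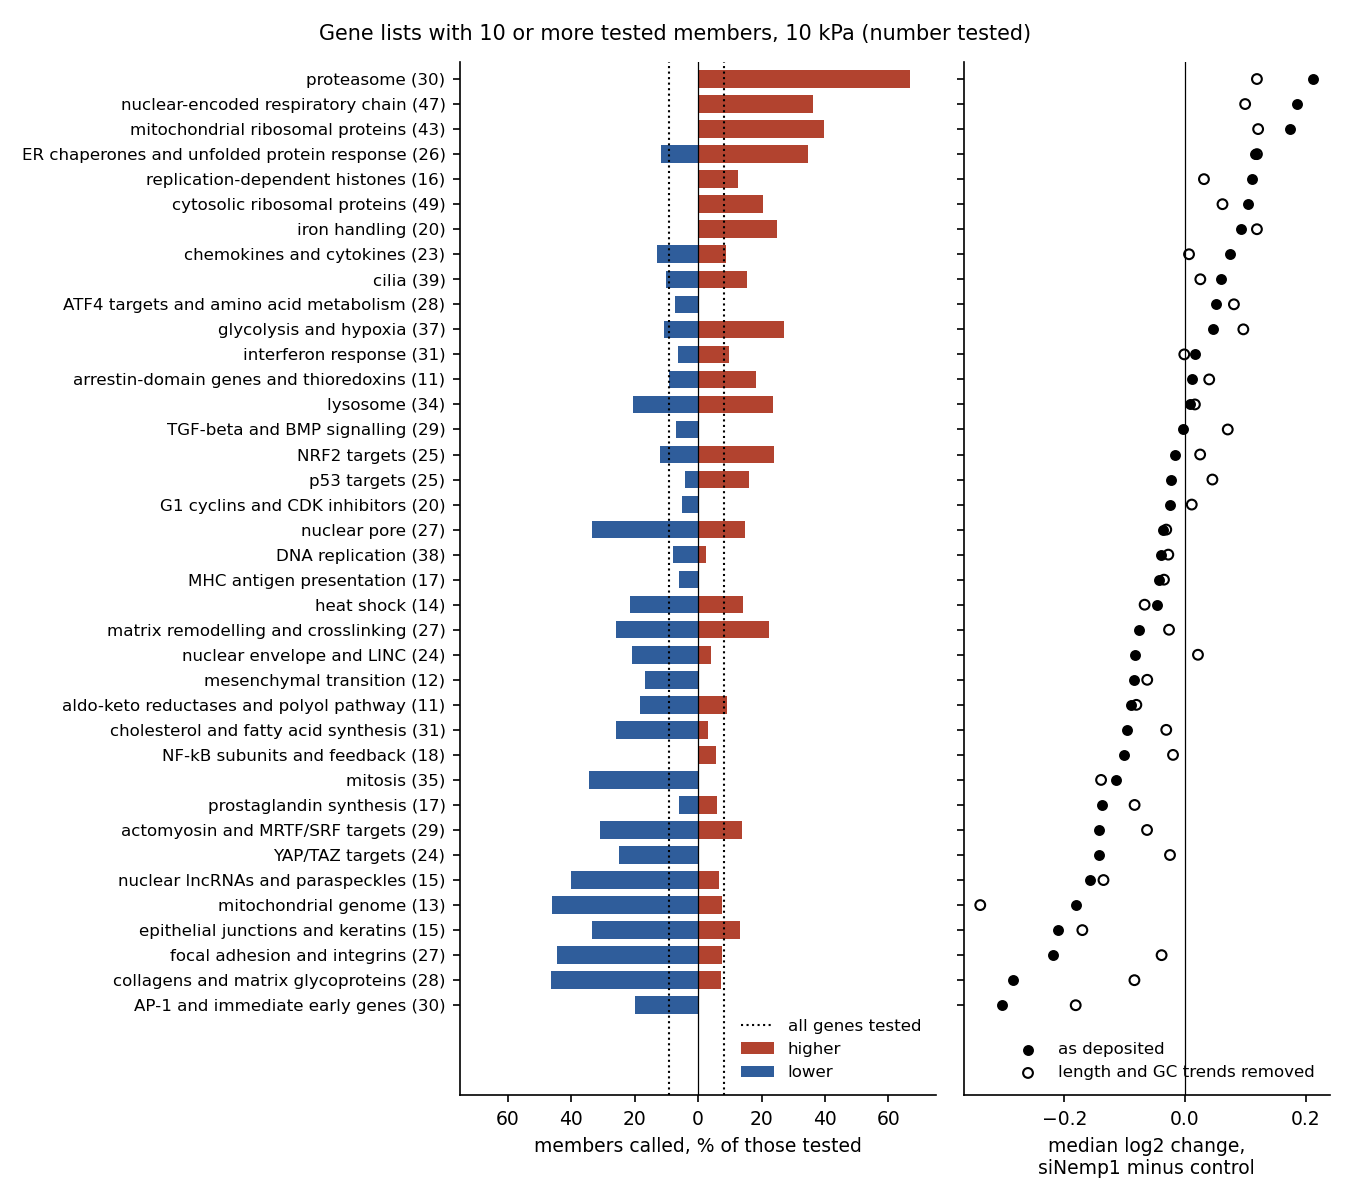
Gene lists with at least 10 tested members, ordered by median change, with the number tested in brackets. Left, the percentage of members called higher (red) or lower (blue) in siNemp1, with dotted lines at the shares of all genes tested, 8.1% and 9.19%. Right, the median log2 change as deposited (filled) and with length and GC trends removed (open). Proteasome genes stand at the top with 20 of 30 higher, and immediate early genes at the bottom with a median of −0.30.

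Metabolic genes were mixed. Of 37 genes of glycolysis and the hypoxia response 10 rose and 4 fell, and with the trends removed 11 and 3. Besides PGK1, the mitophagy receptor BNIP3L rose from 294 and 295 to 388 and 406 CPM (0.43 ± 0.05), PDK1, a pyruvate dehydrogenase kinase, by 0.57 ± 0.12, and PFKFB4 by 0.31. EPAS1, the hypoxia-inducible factor 2 alpha, went from 50.2 and 49.4 to 37.6 and 34.6 CPM (−0.46 ± 0.08), and the carbonic anhydrase CA9 from 490 and 487 to 420 and 370 (−0.31 ± 0.06). GAPDH did not pass, at 30307 and 30095 against 29412 and 32639 CPM. All 6 called genes named here kept their calls with each library left out and with the trends removed, while the list as a whole had 6 calls without control replicate 1 and 7 without control replicate 2.

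Iron-handling genes gave 5 rises and 0 falls among 20 tested, or 25% called against 17.3% of all genes. With the trends removed the counts were 6 and 1. Besides SLC40A1 and NCOA4, the transferrin receptor TFRC rose from 151 and 164 to 193 and 194 CPM (0.29 ± 0.06), the divalent metal transporter SLC11A2 by 0.31, and FBXL5, the iron-sensing ubiquitin ligase subunit, by 0.29. TFRC and SLC11A2 lost their calls without control replicate 1, and FBXL5 without either control library, leaving 2 calls without control replicate 1. Of 25 NRF2 targets 6 rose and 3 fell, and with the trends removed 6 and 1. The quinone reductase NQO1 went from 846 and 857 to 1046 and 1047 CPM (0.30 ± 0.05) and NFE2L2, which encodes NRF2, rose by 0.21. Neither gene's groups overlapped, and both calls were lost without either control library.

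Cholesterol and fatty acid synthesis genes were mostly lower as deposited, with 8 falls and 1 rise among 31. DHCR7, the last enzyme of cholesterol synthesis, went from 196 and 189 to 159 and 147 CPM (−0.33 ± 0.06) and held under each of these settings. FADS2, LPIN1, FASN and SREBF2 changed by −0.32, −0.30, −0.77 and −0.49, but with the trends removed only LPIN1 of these 4 was called and the list had 2 falls and 1 rise. LPIN1 lost its call without control replicate 2, and the list had 3 calls without control replicate 1 and likewise without control replicate 2. In the lysosome, 8 genes rose and 7 fell of 34, and with the trends removed 8 and 2. The cholesterol carrier NPC2 rose by 0.34 and its membrane partner NPC1 fell by 0.38, in both cases without overlap (412.6 and 409 to 495 and 545 CPM, and 94.2 and 89.9 to 69.0 and 72.7 CPM). The protease CTSK rose by 0.39 ± 0.06. The lysosome list had 4 calls without control replicate 1 and 5 without control replicate 2.

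Of 26 chaperones and unfolded protein response genes of the endoplasmic reticulum 9 rose and 3 fell, and with the trends removed 7 and 0. SPCS2, of the signal peptidase, rose by 0.32 ± 0.06 and was called under every single-library omission. The chaperone CALR went from 2274 and 2259 to 2613 and 2721 CPM (0.23 ± 0.06) and PDIA6 rose by 0.24, calls lost without either control library. The list had 2 calls without control replicate 1 and 3 without control replicate 2. Among 14 heat shock genes 2 rose and 3 fell. HSPH1 went from 101 and 105 to 77.7 and 69.1 CPM (−0.49 ± 0.07) and the small heat shock gene CRYAB from 29.4 and 30.0 to 18.02 and 22.6 (−0.55 ± 0.11), while HSPA8, the constitutive HSP70, rose by 0.33, a call lost without control replicate 1. Of 28 ATF4 targets and amino acid genes 2 fell (7.14%, against 17.3% of all genes called), ATF4 itself by 0.21 and SLC7A5 by 0.45. Both calls were lost without control replicate 1.

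Of 15 nuclear long noncoding RNAs and paraspeckle genes 6 fell and 1 rose, and with the trends removed 5 and 1. MALAT1, an abundant RNA of nuclear speckles, went from 3218 and 3050 to 2483 and 2353 CPM (−0.37 ± 0.06), a call lost without control replicate 1. KCNQ1OT1, an antisense transcript of the KCNQ1 locus, fell by 0.71 and MEG3 by 0.29, and with the trends removed they stood at −0.22 and −0.01, neither called. Of 15 epithelial junction and keratin genes 5 fell and 2 rose. The desmosome gene DSP went from 91.9 and 92.8 to 69.9 and 58.7 CPM (−0.52 ± 0.07), the catenins CTNND1 and JUP fell by 0.41 and 0.36 and KRT18 by 0.27, while KRT7 rose by 0.36. With the trends removed DSP stood at −0.29, CTNND1 at −0.28 and JUP at −0.18, all still called. KRT18 and KRT7 lost their calls without either control library. Vimentin, VIM, fell by 0.32 and ZEB2 by 0.36, the only calls among 12 mesenchymal genes (16.7%, against 17.3% of all genes). Both calls were lost without control replicate 1.

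Ciliary genes gave 6 rises and 4 falls of 39, or 25.6% called against 17.3% of all genes. The long centrosomal genes CEP164 and CEP290 stood at −0.70 ± 0.11 and −0.53 ± 0.10 (−0.50 and −0.47 with the trends removed, both called). BBS2 stood at 0.32. Of 31 interferon-response genes 3 rose and 2 fell, or 16.1% called against 17.3% of all genes. With the trends removed 3 were higher and 0 lower. IFIT3 went from 51.1 and 47.6 to 64.4 and 62.8 CPM (0.37 ± 0.07). OAS3, IFI44L, EIF2AK2 and GBP1 changed by −0.51, 0.34, −0.24 and 0.31, calls that were lost without control replicate 1. Of 17 genes of MHC antigen presentation 1 fell (5.88%), TAPBP by 0.29, a call lost without control replicate 2. Of 11 arrestin-domain and thioredoxin genes 2 rose and 1 fell, or 27.3% called. Besides ARRDC3, TXNIP, a glucose-induced relative, rose from 951 and 937 to 1100 and 1143 CPM (0.25 ± 0.05), a call lost without either control library. MLXIP fell by 0.42, a call lost with the trends removed.

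A few genes were nearly absent from 1 group. Of the called genes 21 had at most 3 counts over the 2 libraries of a group, 11 of them at 0 in siNemp1 and 5 at 0 in control. GDF3, a TGF-beta family ligand, was 1 of 2 falls, the only calls, among 29 genes of that signalling list (6.9%, against 17.3% of all genes). It had 200 counts over the control libraries and 1 over the siNemp1 libraries, at 5.16 and 4.84 against 0.0418 and 0 CPM. The ratio was 219 with a 95% counting interval of 38.8 to 8690. CYP17A1, a steroid hydroxylase, was at least 24.4-fold lower in siNemp1, against a floor of 3 counts over the group, and ARHGAP25 at least 21.5-fold lower. OTUB2, a deubiquitinase, was at least 26.8-fold higher and LPCAT1 at least 16.1-fold higher. EIF3CL, at least 39-fold lower, has a near-identical copy, so an assignment of its reads to that copy cannot be told apart from a change in level. These intervals and bounds cover counting error only, and for none of these genes do they cover how reads were assigned among genes. GDF3 was not among the genes tested at 120 kPa.

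Cells at 120 kPa gave an independent set of libraries in which to read the same genes. Of 2285 genes called at 10 kPa and tested at both stiffnesses, 2101 (91.9%) had the same sign at 120 kPa, against 9413 of all 13122 genes (71.7%). Genes that rose at 10 kPa had a median of 0.32 at 120 kPa and genes that fell −0.30. With the trends removed at both stiffnesses the shares were 89.9% of 1672 and 67.4% of all. Of the 58 genes called at least 2-fold and tested at 120 kPa, 39 (67.2%) had the same sign. Not every list median kept its sign. The immediate early list stood at −0.303 at 10 kPa and 0.0957 at 120 kPa, and the YAP and TAZ targets at −0.142 and 0.00438. In the fit of the 6 libraries at 120 kPa edgeR called 0 of 13362 genes, with 1451 at an unadjusted p under 0.05, so these values are descriptions. ARRDC3 had a log2 difference of 0.79 ± 0.19 there, LRRC17 0.76 ± 0.23, SLC40A1 0.73 ± 0.21, PGK1 0.67 ± 0.18, FN1 −0.87 ± 0.37, MKI67 −0.83 ± 0.23, TIMP3 −1.10 ± 0.31 and EGR1 −0.73 ± 0.16.

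The difference between the knockdown effects was tested as 10 minus 120 kPa in the fit of all 10 libraries. It called 1 of 13990 genes (0.00715%), GATAD2B, with 235 at an unadjusted p under 0.05. AKR1B1 and FOS did not pass it, AKR1B1 depending on the setting, and their levels in each library are given because both were among the largest falls at 10 kPa. At 120 kPa AKR1B1 lay at 730.4, 779 and 1038 CPM in control against 725, 794 and 924 in siNemp1. The 2 control libraries at 10 kPa were thus the highest of the 10. Its log2 difference at 120 kPa was −0.06 ± 0.18, and the difference between stiffnesses −1.28 ± 0.24 (unadjusted p = 0.00028, adjusted p = 0.78). That difference was called with DESeq2 (adjusted p = 0.00557), with the replicate block in edgeR (adjusted p = 0.00751) and without a filter on low counts (adjusted p = 0.000145). In the other 15 settings its adjusted p ran from 0.0631 to 1, and the difference itself from −1.46 to −1.15 over all settings. FOS lay at 3.23, 2.84 and 3.19 CPM in control against 2.96, 3.84 and 3.85 in siNemp1 at 120 kPa, so its 10 kPa controls were again the highest of all libraries. The difference between stiffnesses was −1.61 ± 0.30 (unadjusted p = 0.00027, adjusted p = 0.78), and its adjusted p ran from 0.0566 to 1 in the other settings. NR4A2, at 2.06 to 3.31 CPM in control against 2.30 to 3.69 in siNemp1 at 120 kPa, had the same order. SLCO4A1 did so too, with 4.80 to 11.5 CPM over the 6 libraries at 120 kPa. For FOS, NR4A2 and SLCO4A1 the siNemp1 libraries at 10 kPa lay within or at the edge of the range at 120 kPa, and for AKR1B1 just below it. CPM values at the 2 stiffnesses were scaled separately.

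**Figure D5:**
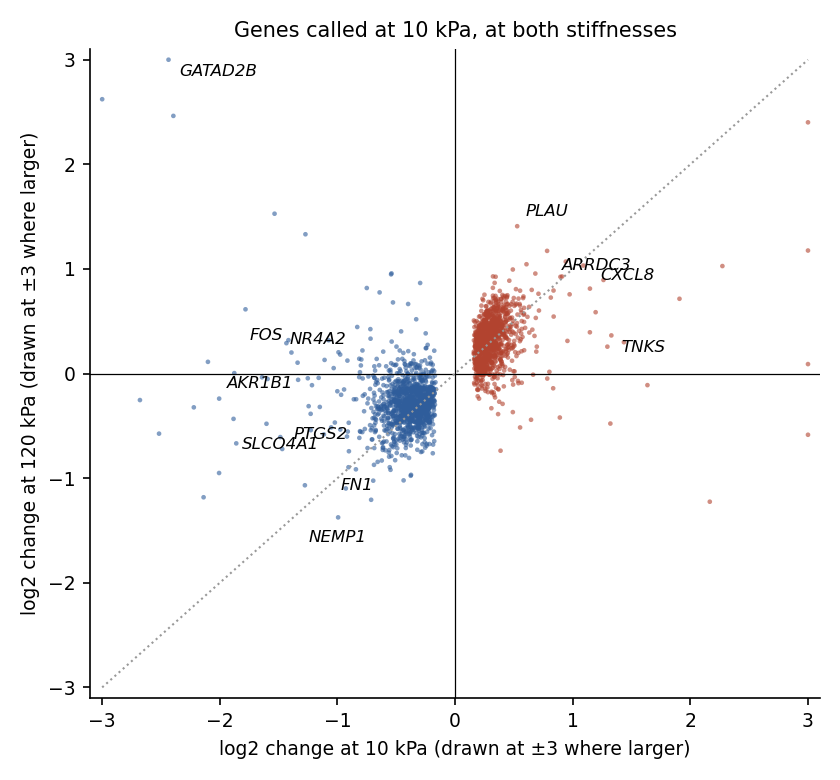
Log2 change at 10 kPa (horizontal) and at 120 kPa (vertical) for the 2285 genes called at 10 kPa and tested at both, red where higher and blue where lower at 10 kPa, with the dotted line of equal change and values past ±3 drawn at the edge. Most points, 2101, lie in the quadrants of equal sign, while AKR1B1, FOS and NR4A2 lie near 0 at 120 kPa.

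The labelled cell type was read from markers. The retinal pigment epithelium factor MITF rose from 127 and 121 CPM in control to 147 and 153 in siNemp1. It was the 1 gene called of 7 tested markers of this type (14.3%, against 17.3% of all genes), and lost its call without control replicate 2. The factor OTX2 (27.6 to 29.7 CPM over the 4 libraries) and the channel BEST1 (68.8 to 75.4) were present, and epithelial KRT18 lay at 552 to 689 CPM. Of 15 markers of this cell type, 8 were under 1 CPM in all 4 libraries, among them RPE65, RLBP1 and LRAT of the visual cycle. The summed level of the 15 was 238 and 229 CPM in control against 261 and 260 in siNemp1. Markers of other cell types were read beside the gene groups above. The 9 fibroblast markers summed to 1104 and 1108 CPM in control against 933 and 939 in siNemp1, most of it THY1, which fell by 0.38. Of the 6 tested, 2 fell, 1 rose and 4 lay above 0 (median 0.08). DCN was the other fall (−0.34), and FAP rose from 147 and 150 to 170 and 171 CPM (0.20). DCN lost its call when any 1 of the 4 libraries was left out, with DESeq2 and with the trends removed. FAP lost its call without either control library and with the trends removed. PDGFRA lay at 16.8 and 17.0 against 19.7 and 20.6 CPM without passing (adjusted p = 0.13 by edgeR), and COL3A1 was at 0 in all 4 libraries. The 13 leukocyte markers summed to 1101 and 1101 against 940.3 and 1030 CPM, nearly all of it the lysosomal gene CD68, and PTPRC was under 2 CPM in each library. CD14, the 1 called of 4 leukocyte markers tested, was low and fell from 1.3 and 2.2 to 0.59 and 0.66 CPM. That call was lost without control replicate 2 or either siNemp1 library. The 10 endothelial markers summed to 3.64 to 4.97 CPM with CDH5 at 0, and the 11 neuronal and glial markers to 126 to 142 CPM, mostly SNAP25 and SYT1, with AQP4 and OLIG2 at 0. The part of these differences in the matrix and lysosome results was not tested.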

How the data were processed

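RNA sequencing libraries were grouped from their titles. Per the labels' protocols, ribosomal RNA was removed from total RNA by RNase H, and cDNA was primed with random hexamers. Per the submitters' processing notes, FastQC 0.11.9, Trimmomatic 0.33, Salmon 1.80 and edgeR were used with GRCh38. The sources used here do not give the transcript annotation, how transcripts were summed to genes, or strandedness. The authors deposited expected counts per gene, not scaled between libraries (20% of values were not whole), which were rounded here. All columns matched a library.

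The 4 libraries at 10 kPa were fitted alone with edgeR 4.0.16 in R 4.3.3 (filterByExpr, TMM, robust quasi-likelihood fit, two-sided tests, Benjamini-Hochberg over all genes tested, called under 0.05), and the difference between stiffnesses on all 10 libraries. CPM values are TMM-scaled. Alternatives were other scalings and filters, DESeq2 1.42.0, all 10 libraries, the replicate number as a block and each library left out. Leaving out a library leaves 1 in its group, whose spread is then assumed to equal that of the other group. Trends of log level with transcript length and GC content were removed as offsets per library (mgcv 1.9.3), with lengths of 1 GENCODE 29 transcript per gene for 13195 tested genes (98.9%). Gene positions are from GENCODE 29 on GRCh38.

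Named genes were NEMP1, NEMP2, 16 fixed genes, up to 12 largest rises and falls among genes averaging 5 CPM or more and again 100 CPM or more (called, no overlap, standard symbol), and called members of 43 lists, the 6 with the smallest p where there were more. The members and lists were chosen with earlier results of these data known. On simulated data the 10 kPa fit, with 13344 genes, recovered 78% of genes changed by 1 on the log2 scale and 97% of those changed by 2. The test of the difference, with 13990 genes, recovered 15% and 61%. The simulated spread was estimated from these same libraries, and 200 genes were changed in each run. Smaller changes, such as the median of 0.33 among called genes, were not simulated, so the rates do not cover them.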

Additional observations from a re-analysis of the deposited data

Results flagged for a closer look

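GATAD2B, a subunit of the NuRD chromatin complex, was the 1 gene whose knockdown effect differed between stiffnesses by the test of the difference itself in the fit of all 10 libraries. At 10 kPa it lay at 3.82 and 4.37 CPM in control against 0.713 and 0.808 in siNemp1. At 120 kPa it lay at 0.0453, 0.11 and 0.0842 CPM in control against 0.934, 2.74 and 2.03 in siNemp1. GATAD2B was lower in both siNemp1 libraries at 10 kPa and higher in each of the 3 at 120 kPa. Its log2 change in that fit was −2.42 at 10 kPa and 4.5 at 120 kPa. The control levels at 120 kPa were near the floor of detection. The size of the change there, and so of the difference, is therefore uncertain. The difference of the log2 changes, 10 minus 120 kPa, was −6.92 ± 0.73 (SE). Its adjusted p was 0.0207 (edgeR, quasi-likelihood test, Benjamini-Hochberg). Across the other settings in which it was tested the difference stayed between −7.23 and −6.57. Adjusted p-values ran from 1.21e-16 without a filter to 0.318 without siNemp1 replicate 1 at 10 kPa. Leaving out control replicate 2 at 10 kPa gave 0.126, siNemp1 replicate 2 at 10 kPa 0.0637, control replicates 2 or 3 at 120 kPa 0.111 and 0.0999, siNemp1 replicate 3 at 120 kPa 0.0612, and keeping only replicates 1 and 2 gave 0.0691. With a filter of at least 5 CPM in 2 libraries it was not tested.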

How the results depend on the processing

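With 2 libraries a group, what limits these results is the spread estimate. The 2308 calls at 10 kPa became 1322 with DESeq2 (6996 genes with an adjusted p), 0 in the fit of all 10 libraries, and 81 when a log2 change of at least 1 was also asked. They ranged from 844 to 3117 with 1 library left out, 844 without control replicate 1 and 1164 without control replicate 2. Other scalings, filters and the block gave 2225 to 2584. Of 215 named called genes, 133 remained called when control replicate 1 was left out and 151 when control replicate 2 was, 205 and 202 for siNemp1 replicates 1 and 2, 167 with length and GC trends removed, and 172 of 187 with an adjusted p in DESeq2, where NEMP1 had none. The sign reversed for SYNE1 with the trends removed (0.021). NEMP1 in the fit of all 10 libraries was −0.98 with an adjusted p of 0.803.

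Deviations of same-numbered libraries at 10 kPa had a correlation across genes of 0.0176 (2 pairs). With 2 libraries a group this cannot show whether the number pairs them, and its meaning is not given. With the replicate number as a replicate block 2232 genes were called, 2167 of them among the 2308, and the same-sign count at 120 kPa was 2116 of 2285. Leaving out a pair at 120 kPa gave 2043 to 2119. The difference between stiffnesses called 70 genes without a filter on low counts, 3 with DESeq2 and 4 with the replicate block, AKR1B1 among them each time. It called 0 at 5 CPM in at least 2 libraries, 0 with replicates 1 and 2 only, and 0 to 3 with 1 library left out.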
